A study of Drosophila melanogaster with 3 samples.

Results

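The V-ATPase subunit genes of Drosophila melanogaster were taken as the protein-coding genes whose symbol starts with Vha followed by a digit, M or P, with every paralogue kept. This symbol rule found 28 of the 13968 protein-coding genes of the annotation. They encode 11 subunits, 7 of the V1 sector and 4 of the V0 sector. Each subunit has 1 main gene, known from the literature as part of the widely used pump of epithelia, which gives 11 main genes. The other 17 genes are paralogues, several of which are known for expression in the testis, the nervous system or few tissues. This split comes from prior knowledge, and the peak lists hold no expression values that could check it. Binding of fkh, a forkhead (Fox) transcription factor, was profiled by ChIP-seq in prepupae taken whole, at the start of metamorphosis. The flies were of the fkh-GFP strain, a stable transgenic line in which green fluorescent protein is joined to the C terminus of fkh, and the antibody recognised that tag. Whether the fusion gene adds to the normal copies of fkh, and in which tissues it is active, was not examined. There was 1 group of 3 biological replicates, each of pooled males and females. The labels give an age of 24 days, which does not match the stage and was not used.

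The V-ATPase is a rotary pump that uses ATP to move protons across membranes. Its V1 sector, in the cytosol, splits ATP and turns a central shaft, and its V0 sector, in the membrane, holds the ring and the channel through which protons pass. The pump acidifies lysosomes and other compartments of every cell. In insects it also energises the plasma membrane of transporting epithelia such as those of the gut, the Malpighian tubules and the salivary glands. fkh is needed for salivary glands and parts of the gut to form. Whole animals were used, so a peak cannot be placed in any of these tissues.

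A gene was counted as having a peak when a summit of the authors' optimal list, which holds 9531 peaks kept by their reproducibility step, lay within 1000 bp of any of its transcription start sites (TSSs). By this count 7 of the 11 main genes had a peak, which was 63.6% (exact 95% interval 30.8% to 89.1%). Of the 17 paralogues 2 had one, which was 11.8% (exact 95% interval 1.46% to 36.4%). The share among all protein-coding genes was 31.1% (4345 of 13968). The main genes lay above and the paralogues below the background share of 31.1%, but both intervals include that share. All 28 genes together, with 9 or 32.1%, lay close to it. The intervals are Clopper-Pearson intervals over genes and cover counting error only. No test was made, since genes are not replicates of a condition and the series has 1 group.

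The DNA under 7 of the 14 summits at these genes is shown so that summits can be compared for the letters that forkhead proteins are known to prefer. They belong to 6 of the 9 genes with a peak. Each run is 101 bases of the dm6 genome (RefSeq, release 6), centred on the summit and written 5′ to 3′ on the strand of the gene. Capitals mark a forkhead word on either strand. The word is T, then A or G, then TTT, then A or G, then C or T.
Vha26 (V1 E), strongest summit, chr3R:5591479-5591579, plus strand: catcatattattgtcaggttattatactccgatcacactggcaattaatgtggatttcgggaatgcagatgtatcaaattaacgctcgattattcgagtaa
Vha26, summit next to the TSS, chr3R:5591691-5591791, plus strand: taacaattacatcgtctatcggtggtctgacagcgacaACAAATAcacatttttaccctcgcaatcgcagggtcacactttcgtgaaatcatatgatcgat
Vha68-2 (V1 A), chr2L:12974439-12974539, plus strand: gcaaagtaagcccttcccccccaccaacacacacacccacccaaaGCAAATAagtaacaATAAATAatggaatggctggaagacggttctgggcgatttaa
Vha55 (V1 B), chr3R:12626717-12626817, minus strand: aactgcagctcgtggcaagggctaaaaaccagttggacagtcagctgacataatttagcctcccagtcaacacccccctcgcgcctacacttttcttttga
Vha13 (V1 G), chr3R:19644081-19644181, minus strand: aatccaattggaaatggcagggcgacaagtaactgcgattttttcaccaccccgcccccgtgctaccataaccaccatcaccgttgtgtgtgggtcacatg
Vha100-2 (V0 a), strongest summit, chr3R:18398694-18398794, minus strand: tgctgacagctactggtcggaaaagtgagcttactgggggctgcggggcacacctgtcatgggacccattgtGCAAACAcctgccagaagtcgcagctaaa
VhaM9.7-a (V0 e, paralogue), chr3L:4262515-4262615, plus strand: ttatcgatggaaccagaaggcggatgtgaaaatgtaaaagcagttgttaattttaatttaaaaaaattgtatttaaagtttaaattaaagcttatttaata
For the other paralogue with a peak, Vha16-5 (V0 c), only the word with 10 bases to each side is shown, on the strand that reads the word.
Vha16-5, chr2L:10737376-10737402, plus strand: atttttctttTATTTGTtgtacgcacg

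In these runs Vha68-2 holds 2 words, with centres 2 and 12 bp from the summit. The strongest summit of Vha100-2 holds 1 word, 25 bp from the summit, and the Vha26 summit next to the TSS holds 1, 9 bp away. Vha16-5 holds 1 word, 17 bp from the summit. The strongest summits of Vha26, Vha55, Vha13 and VhaM9.7-a hold none. Among the genes with a peak whose runs are not shown, Vha36-1 holds 1 word within 50 bp of its summit and Vha44 holds 2. The strongest summit of the family, at Vha26, was thus without a word within 50 bp and the next, at Vha36-1, had one. The interval of that Vha26 summit also holds the summit next to the TSS, which has a word.

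**Figure D1:**
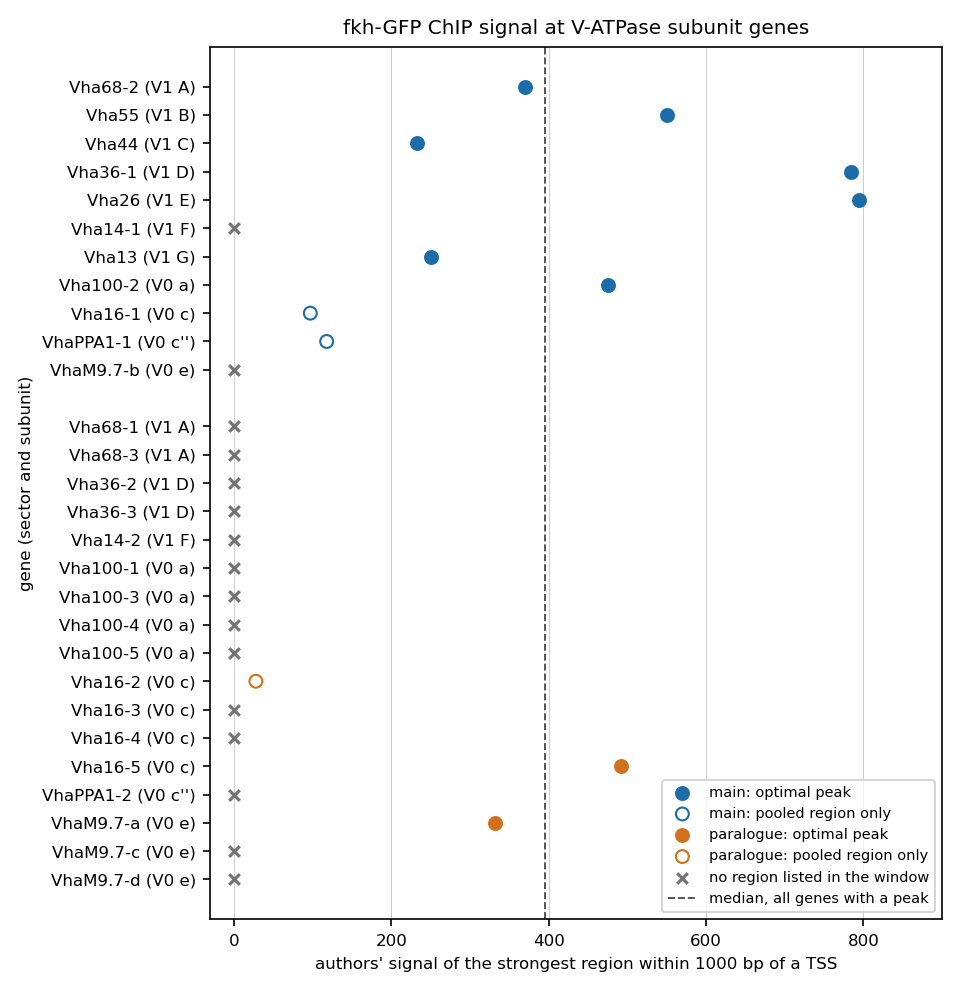
Authors' signal (horizontal axis, scale not stated) of the strongest region within 1000 bp of a TSS for each of the 28 genes (vertical axis). Filled points are peaks of the optimal list, and open points are regions in the list from all replicates together but not in the optimal list. Crosses are genes with no region of either of these lists in the window (drawn at 0, no value). Some of them have regions in replicate lists. The dashed line is the median of 395.1 over all genes with a peak. The 7 main genes with a peak run from 233.2 to 794.2, and all but 2 of the 17 paralogues are open points or crosses.

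The catalytic head and the shaft and stalks of V1 come first. Among the main V1 genes, 6 of 7 had a peak, against 31.1% of all protein-coding genes. Vha26 encodes subunit E, part of the peripheral stalks that hold the head still. Its strongest summit had a signal of 794.2, lay 234 bp upstream of its TSS on 3R, and ranked 802 of the 9531 optimal peaks. The overlapping regions ranked 1032, 835 and 579 of 30000 in replicates 1, 2 and 3, a mean of 815.3 ± 227.1 (SD, n = 3). In all replicates it was thus among the strong regions of the list. The summit is in intergenic sequence, and the TSS of noi, 70 bp away, is nearer than that of Vha26. A weaker summit of 222.4 in the same interval lay 22 bp upstream of the Vha26 TSS, and one of 309.4 lay 605 bp downstream in an intron of Vha26. That intronic region ranked 5417, 3663 and 5824 in the replicates, so it stood well below the upstream one in each.

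Vha36-1, on 2R, encodes subunit D of the central shaft. Its summit had a signal of 784.0 and lay 77 bp upstream of its TSS, and the overlapping regions ranked 1346, 636 and 811 (931 ± 369.9, SD, n = 3). The replicate summits lay within 12 bp of each other. The place is in the 5′ UTR of CG8187, whose TSS is 5 bp from the summit, so the peak counted for both genes. By their strongest peak, Vha26 and Vha36-1 stood at percentiles 84.3 and 83.8 among the 4345 genes with a peak. Their replicate ranks overlapped, and they were not distinguishable from each other.

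Vha55 encodes subunit B, which binds nucleotides in the head beside the catalytic subunit A. Its summit on 3R, with a signal of 550.4, was the farthest from a TSS of the members counted, at 934 bp downstream in an intron of Vha55. It ranked 1564, 2235 and 2497 in the replicates (2098.7 ± 481.2, SD, n = 3), with summits within 13 bp of each other. The gene has 3 TSSs, and no other gene has a TSS closer to this summit. Vha68-2 encodes the main catalytic subunit A and has 5 TSSs, the most in the family. Its summit had a signal of 369.9, below the median of genes with a peak, and lay 125 bp downstream of a TSS in an intron of the gene. The overlapping regions ranked 4893, 2006 and 6572 (4490.3 ± 2309.5, SD, n = 3). Replicate 2 placed Vha68-2 higher than Vha55 and the others placed it lower, so the order of these head subunits did not hold in every replicate.

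Vha13 and Vha44 were the weakest of the main genes with a peak. Vha13 encodes subunit G, the partner of E in the stalks, and its peak ranked 5893 in the optimal list, at 255 bp downstream of its TSS in an intron on 3R. It ranked 5494, 10357 and 5206 (7019 ± 2894.4, SD, n = 3), and in replicate 2 it was not among the 9531 strongest regions. Vha44 encodes subunit C, which links the stalks to the membrane sector. Its summit on 2R had a signal of 233.2 in an intron, 799 bp downstream of a TSS, and the TSS of Hmgs is nearer at 252 bp. It ranked 7552, 4976 and 5451 (5993 ± 1370.9, SD, n = 3), with summits spread over 121 bp. The ranks of Vha13 and Vha44 overlapped between replicates.

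The main V1 gene without a peak was Vha14-1, which encodes subunit F of the central shaft. The list from all replicates together held no region in its window, and its nearest optimal summit was 3440 bp away. Replicate 2 nevertheless listed a region of rank 1644, with its summit 916 bp downstream of the TSS, and replicate 3 one of rank 5381 at 886 bp downstream. Replicate 1 listed none in the window. Both summits lie in intergenic sequence past the end of this short gene, and the TSS of Gmppa is 212 bp from the first and 242 bp from the second.

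In V0, 1 of 4 main genes had an optimal peak, against 31.1% of all protein-coding genes. In the list from all replicates together, 3 of these 4 had a summit in the window, against 43.3% of all genes. The V1 and V0 split was noticed after the values were seen. Vha100-2 encodes a main form of subunit a, which holds the proton channel beside the ring. It had 4 summits, the most of any member. The strongest had a signal of 475.9 and lay 425 bp downstream of a TSS, in an intron of Vha100-2 on 3R that also lies in an intron of Vti1b. It ranked 2521, 2441 and 2350 in the replicates (2437.3 ± 85.6, SD, n = 3), the smallest spread among the strongest summits of the 9 genes. A summit of 231.1 lay 226 bp downstream of the same TSS. The other summits, of 427.5 and 309.6, lay 341 and 540 bp upstream of the inner TSS in the 5′ UTR of Vti1b, whose TSS is nearer to them at 274 and 473 bp. The summits downstream of the outer TSS, of 475.9 and 231.1, lie 965 and 766 bp from the TSS of Vti1b. The intervals of the summits of 475.9 and 231.1 overlap, and these summits took the same best replicate ranks. Those of 427.5 and 309.6 also overlap, so the 4 summits need not be separate places of binding. The peaks of Vha100-2 thus fall at both of its TSSs, and by the 1000 bp rule all 4 count for Vti1b as well.

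Vha16-1 encodes subunit c, the proteolipid of the ring, and is the main gene closest to the 1000 bp limit from outside. In its window the combined list held a region of signal 97.0 at rank 14507, with a −log10 q-value of 2.05, below the optimal peaks, which all have 4.289. The best replicate ranks in the window were 10116, 4893 and 11720. The gene body on 2R nevertheless holds 4 optimal summits, all in introns of Vha16-1. The strongest had a signal of 634.6, lay 3956 bp from the nearest TSS of the gene, and ranked 1168, 2093 and 1263 in the replicates. The next had 629.6, lay 1662 bp from a TSS, and ranked 909, 3315 and 1508. The other summits had 277.9 and 224.8. By signal, the strongest intronic summits of Vha16-1 stand between the peaks of Vha36-1 and Vha55, and the distance rule alone keeps the gene out of the count.

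VhaPPA1-1 encodes subunit c″ of the ring and had a region of signal 117.8 in the combined list, at rank 12447 with a −log10 q-value of 2.63, 64 bp upstream of its TSS. It ranked 15370 in replicate 1 and 9259 in replicate 2, and replicate 3 listed none in the window. VhaM9.7-b, which encodes the small membrane subunit e, had no region in the combined list. Replicate 3 alone listed one, of rank 6880, in the 5′ UTR 11 bp downstream of the TSS. For these ring and membrane genes the replicates therefore differed in whether a region was listed at all.

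**Figure D2:**
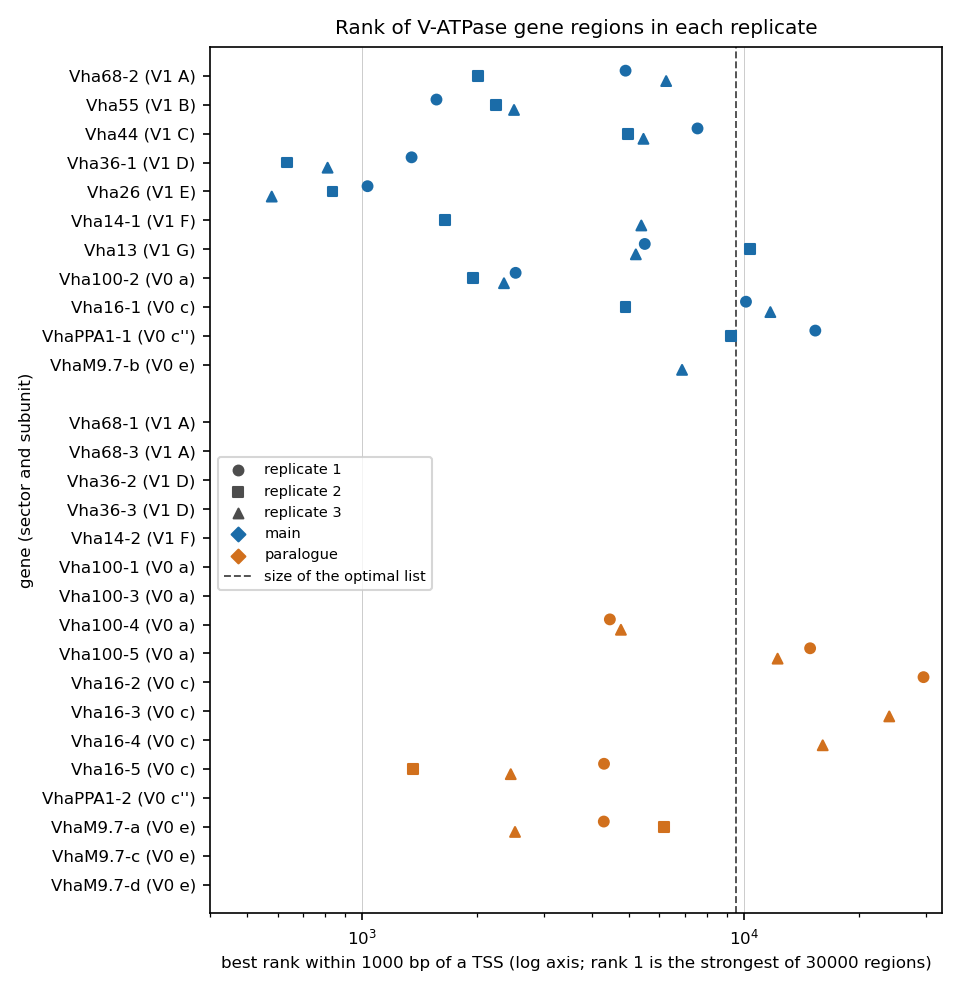
Best rank of any region with a summit within 1000 bp of a TSS (horizontal log axis, 1 is the strongest of 30000) in each replicate (symbols) for the 28 genes (vertical axis). A missing symbol means that no region was listed, and the dashed line is rank 9531. Of the main genes, 6 have all 3 symbols left of the line, while 10 of the 17 paralogues have no symbol.

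The paralogues with a peak both belong to V0. Vha16-5 is a gene for subunit c on 2L with a signal of 491.7, 329 bp upstream of its TSS. It ranked 4297, 1355 and 2448 (2700 ± 1487.1, SD, n = 3), and the replicate summits lay within 20 bp. The summit is in the 5′ UTR of CG12299, whose TSS is 27 bp away. VhaM9.7-a is a gene for subunit e on 3L with a signal of 332.3, 140 bp upstream of its TSS in intergenic sequence, and the TSS of CG11586 is nearer at 95 bp. It ranked 4291, 6180 and 2512 (4327.7 ± 1834.3, SD, n = 3). Both paralogue peaks thus lie closer to the start of another gene than to the V-ATPase gene.

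Of the other 15 paralogues, 14 had no region in the combined list within 1000 bp of a TSS. The exception was Vha16-2, with a signal of 27.8 near the end of that list (rank 29814 of 30000). Vha100-4, a gene for subunit a, had regions of rank 4451 in replicate 1 and 4758 in replicate 3, 324 and 302 bp upstream of its TSS, and none in replicate 2. The start of Vha100-4 lies 517 bp past the end of Vha100-2 on the same strand, and both summits lie in the space between the genes. Vha100-5 had regions of rank 14895 and 12242 in replicates 1 and 3. Vha16-2, Vha16-3 and Vha16-4 each had 1 weak region in 1 replicate, at rank 29520, 24008 and 16071. No replicate listed a region for Vha68-1 and Vha68-3 (subunit A), Vha36-2 and Vha36-3 (D), Vha14-2 (F), Vha100-1 and Vha100-3 (a), VhaPPA1-2 (c″), or VhaM9.7-c and VhaM9.7-d (e). Every V1 paralogue is in this last group.

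Subunits with paralogues can be compared with the main gene inside each family. There are 7 such subunits. For A, D and a, the main gene had a peak and no paralogue did. For c and e, a paralogue had a peak and the main gene did not, although the main gene of c has intronic peaks outside the window. For F and c″ no gene had one. The other 4 subunits, B, C, E and G, have a single gene in the list, and all 4 of these genes had a peak. Among the subunits with paralogues, 3 of 7 main genes therefore had a peak. The share of all protein-coding genes was 31.1%. The other main genes with a peak are the 4 of the subunits with a single gene in the list. Both groups are small, and the interval for all main genes includes the share of all genes. The symbol rule leaves out subunits H (VhaSFD) and d (VhaAC39-1 and VhaAC39-2), and none of their genes had an optimal peak.

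Neighbouring genes of the family were also compared. Vha68-3 starts 178 bp past the end of Vha68-2 on 2L, and Vha68-1 lies 19476 bp beyond that gene. Vha68-2 had a peak and the others did not. The summit of Vha68-2 lies 4297 bp from the TSS of Vha68-3, so the 1000 bp rule could not count it for both. VhaPPA1-2 and VhaPPA1-1 lie 2052 bp apart on 3R, with neither in the optimal list. Vha16-3 and Vha16-2, 985 bp apart on 3L, had no optimal peak.

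In the combined list, a summit lay in the window of 9 main genes and 3 paralogues, against 43.3% of all protein-coding genes. Neither list had one for 2 main genes and 14 paralogues, against 56.7% of all genes. Replicates were compared by rank, since lists called separately do not share a signal scale. A region among the 9531 strongest of a replicate lay within 1000 bp of a TSS in 7, 9 and 9 of the 11 main genes in replicates 1, 2 and 3. For the paralogues the counts were 3, 2 and 3 of 17. The shares of all protein-coding genes were 31, 33.2 and 35.6%. The order of main genes, all genes and paralogues was thus the same in each replicate. In all 3 replicates at once, 6 main genes (54.5%) and 2 paralogues (11.8%) had such a region, against 26.1% of all genes. All 11 main genes had one in at least 1 replicate, as did 3 paralogues and 5708 of all genes (40.9%).

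Some of these regions had no counterpart in the combined list. Of the 9531 strongest regions, 2.86%, 4.62% and 7.85% in replicates 1, 2 and 3 shared no base with any region of that list. At the V-ATPase genes this held for 5 of 51 strong regions, those of Vha14-1, VhaM9.7-b and Vha100-4. The cause was not tested, and these genes were not counted as having a peak.

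**Figure D3:**
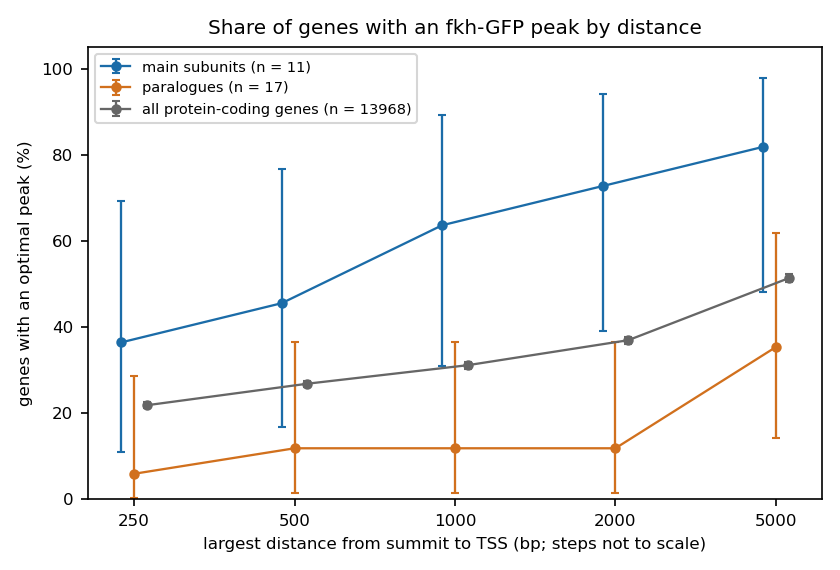
Share of genes with an optimal summit (vertical axis, %) for 5 distances from a TSS (horizontal axis, bp, steps not to scale) for main genes, paralogues and all protein-coding genes. Bars are exact 95% intervals over genes. At every distance the main genes are above and the paralogues below all genes.

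The order of the classes was the same at each distance tried. Within 250 bp of a TSS, 4 main genes and 1 paralogue had a summit, against 21.8% of all genes. Within 500 bp the counts were 5 and 2, against 26.8%, and within 2000 bp 8 and 2, against 36.9%. Within 5000 bp they were 9 and 6, against 51.3%. At each distance the share of main genes was above and that of paralogues below the share of all genes. The median distance from a TSS to the nearest optimal summit was 799 bp for main genes, 7464 bp for paralogues and 4644 bp over 13945 genes with a value. Just inside the limit of 1000 bp lay Vha55 at 934 bp and Vha44 at 799 bp, and just outside lay Vha16-1 at 1662 bp, VhaPPA1-2 at 2018 bp and Vha36-2 at 2144 bp.

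Gene structure differed between the classes as well. Median gene length was 3594 bp for main genes, 1371 bp for paralogues and 2164.5 bp for all genes. More than 1 TSS was annotated for 5 of 11 main genes and 3 of 17 paralogues, and each further TSS widens the region searched. With only the outermost TSS of each gene, 6 main genes and 2 paralogues had a peak, against 29.1% of all genes. An optimal summit lay inside the gene span of 7 main genes and of none of the 17 paralogues (exact 95% upper bound 19.5%), against 19.8% of all genes. The part of length and of TSS number in the difference between classes was not tested.

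**Figure D4:**
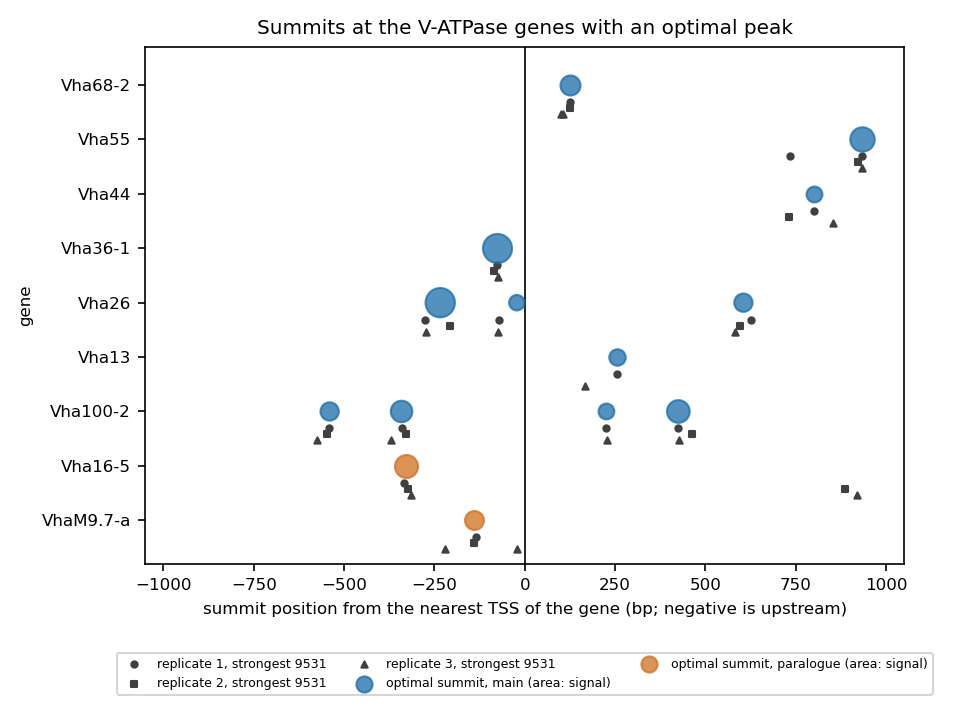
Position of summits (horizontal axis, bp from the nearest TSS of the gene, negative is upstream) for the 9 genes with an optimal peak (vertical axis). Circles are optimal summits with area in proportion to the signal, and small symbols under them are summits of the 9531 strongest regions of each replicate. The summits of Vha36-1 lie within 12 bp of each other in the 3 replicates, whereas those of Vha44 spread over 121 bp.

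Of the 14 optimal summits at the 9 genes, 7 lay downstream of the nearest TSS of the member and all 7 of these were in introns of the member. A TSS of the member was the closest of any gene for 7 summits, at Vha68-2, Vha55, Vha26, Vha13 and Vha100-2. When each summit was given only to the protein-coding gene with the nearest TSS, 5 genes had a peak, all of them main genes, against 24.1% of all genes. At Vha36-1, Vha44, Vha16-5 and VhaM9.7-a the summit was nearer to a TSS of another gene. The median signal of the 7 main genes with a peak was 475.9, against 395.1 over all 4345 genes with a peak. These values spread from 233.2 to 794.2 and include both sides of the background median.

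Forkhead words were no more frequent at these summits than at other peaks. Within 50 bp on either strand, 6 of 14 summits held a word (42.9%), against 52.4% of the 4885 optimal summits within 1000 bp of a protein-coding TSS and 58.5% of all optimal summits. Beside the summits printed, words were found at those of Vha44 and Vha36-1. Within 100 bp the share was 64.3%, against 73.1% and 77%, and within 25 bp it was 28.6%, against 31.5% and 36.8%. In promoters from 250 bp before to 50 bp after the outermost TSS, 18 of 28 genes held a word (64.3%), against 63% of all promoters. Main genes (7 of 11) and paralogues (11 of 17) both had shares close to that of all promoters. Any link between words and the difference in peaks between the classes was not tested. A match is a description of the sequence, not a site.

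Other words known from promoters of housekeeping and lysosomal genes were searched in the same way. Within 50 bp of the 14 summits there was no match to TATCGATA (the DRE, a promoter element), CACGTG (the E-box bound by basic helix-loop-helix factors such as Mitf), TCACGTGA (the longer E-box that contains it) or GATAAG (bound by GATA factors). At optimal summits within 1000 bp of a protein-coding TSS the shares were 3.15%, 1.37%, 0.0614% and 7.16%. In promoters the E-box was found at 2 of 28 genes, against 4.23% of all promoters. At Vha44 it was the longer form, 47 bp upstream of the TSS, which 0.172% of all promoters hold, and at VhaM9.7-d it lay 23 bp downstream. The DRE was found at Vha55, against 9.36% of all promoters, and the GATA word at 6 genes, against 18.9%.

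The genes of the complex outside the symbol rule were examined from a list. None of 6 had an optimal peak, against 31.1% of all genes. VhaSFD (subunit H), VhaAC39-1 and VhaAC39-2 (subunit d) had regions in the combined list of signal 121.6, 119.7 and 104.0. VhaAC45, VhaAC45RP and ATP6AP2 (accessory proteins) had none there. Among the 9531 strongest regions of a replicate, VhaAC45 had one of rank 7464 in replicate 2 and ATP6AP2 one of rank 4156 in replicate 3, and the other 4 genes had none.

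Genes for assembly and regulation of the pump, again from a list, had a peak in 5 of 10 cases, against the 31.1% of all genes. They include the Ragulator subunits, which tie the pump to nutrient sensing at the lysosome. Lamtor4 had a signal of 1457.7, Lamtor3 of 991.7 and Lamtor2 of 717.9. The Rag GTPases RagA-B and RagC-D had 233.9 and 169.7. Lamtor5, Rbcn-3A and Rbcn-3B, the last pair encoding partners in pump assembly, had weaker regions of 114.2, 147.0 and 55.3 in the combined list, and Lamtor1 and Mitf had none. The strongest regulatory gene, Lamtor4, thus had a higher signal than any V-ATPase subunit gene. At fkh itself the signal was 6080.8 at rank 1 in every list.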

How the data were processed

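ChIP-seq regions were taken from lists that the authors deposited for dm6: the optimal list, the list from all replicates together and 3 replicate lists, 30000 regions in each of the last 4. Per the deposited file lists, regions were called against 1 shared control and passed a reproducibility (IDR) step. For the aligner, peak caller and IDR threshold, names and settings were not given in the sources used here. The authors wrote a signal (scale unknown) and a −log10 q-value for every region in their deposited files. Lists called on another build were not used. Chromatin was fragmented to 200 to 800 bp, per the labels. The lists hold no read counts, so depth is unknown and intervals cover counting error only.

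TSSs came from Ensembl release 115 and sequence from the RefSeq release 6 genome. For all 28 genes the outermost coding start read as a start codon there. Overlap meant at least 1 shared base. Optimal peaks took the best rank among overlapping replicate regions, and genes without one the best rank in the window. Words were searched on both strands. Every member is named. The members and lists were chosen with earlier results of these data known. VhaM8.9 is named ATP6AP2 in the annotation and falls outside the symbol rule. Assignment of summits to genes was tested on simulated data. Python 3.11.15, pandas 2.3.3, numpy 2.4.6, scipy 1.17.1 and matplotlib 3.10.9 were used. With 1 group no comparison between conditions was possible. Alternatives covered distance, peak strength, replicate filters, assignment and class.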

Additional observations from a re-analysis of the deposited data

How the results depend on the processing

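The main count was 9 genes, 7 main and 2 paralogues. It changed by more than 1.5 times in some settings. At 250 bp it was 5, with 4 main genes and 1 paralogue, and at 5000 bp it was 15, with 6 paralogues, since the window sets how many summits are reached. With each summit given only to the nearest protein-coding gene it was 5, with 0 paralogues. Among subunits with 2 or more genes, 3 of 7 main genes had a peak, against 31.1% of all genes. A strongest region in all 3 replicates was found at 8 genes (28.6%), against 26.1% of all genes. It was found at 5 genes when 4765 regions per replicate were taken and at 10 with all 30000. No share of all genes is at hand for these last counts, so they cannot be set against a background. Peaks were not called again without a replicate. Instead, optimal peaks were kept when they were also among the strongest regions of the remaining replicates. Leaving out replicate 1, 2 or 3 from this filter gave 8, 9 and 8 genes, against 26.7%, 26.5% and 26.6% of all genes. The filter can only remove genes, so the count could not exceed 9. It therefore cannot show how the calls depend on any 1 replicate. With Vha68-1 and Vha100-1 counted as main the shares were 7 of 13 and 2 of 15, against the same 31.1%. Adding ATP6AP2, a choice made after seeing the data, gave 7 of 12. Leaving out VhaM8.9 gave no value, since the symbol rule does not hold it. The unknown depth, 3 replicates and 1 control limit the weaker calls, such as Vha13 and Vha44.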

Other observations

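Genes of the lysosome, the compartment that the pump acidifies, had an optimal peak in 7 of 13 matched cases (53.8%), against 31.1% of all protein-coding genes. CtsL1 (a cathepsin protease) had a signal of 717.6, Ppt1 (a thioesterase) 682.1, spin (a lysosomal transporter) 429.1, Cln7 230.0, CtsB 227.0, CtsF 222.1 and Npc1a (a sterol transporter) 189.1. Lamp1, Npc2a, Trpml, Gba1b, Cln3 and cathD had no optimal peak, and Gaa and Tpcn were not matched by symbol. Lamp1 had regions of rank 7930, 7563 and 9512 in the replicates, but its best region in the combined list ranked 26496. The proteasome, another complex with main genes and tissue-limited paralogues, had a peak at 12 of 32 main genes (37.5%) and 0 of 16 tissue-limited ones, against the same 31.1%. The share of main proteasome genes was thus near that of all genes. The tissue-limited Prosbeta2R2 had regions of rank 2572, 2167 and 1764 in the replicates and no region in the combined list. The lysosome and proteasome counts share peaks, since the summit of CtsL1 is also that of Rpn13 and the summit of Npc1a is also that of Prosalpha6.

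Mitf, a basic helix-loop-helix factor on chromosome 4, had regions of rank 5006, 11180 and 4969 in the replicates and no region in the combined list.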
